A study of Homo sapiens with 38 samples.

Results

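The proteasome genes were examined for H3K27ac and H3K27me3 at their transcript starts in K562 cells, an established human leukaemia line with erythroid features. Members were the protein-coding genes of the GENCODE annotation lifted to hg19 whose symbol starts with PSMA, PSMB, PSMC, PSMD, PSME, PSMF or PSMG and a number, which gave 50 of 20162 genes scored. PSMB8, PSMB9, PSMB10 and PSMB11, the inducible or tissue-restricted beta subunits, were set apart, and the other 46 are called the proteasome genes below. Of these 46, PSMC3IP and PSME3IP1 match by symbol and are no part of the particle. A gene was called in a peak list where at least 1 base of a peak lay within 1.5 kb of any annotated transcript start of that gene.

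Both marks were profiled by CUT&Tag, in which an antibody tethers a transposase that cuts and tags the DNA beside the marked nucleosomes. The series held 38 libraries, 31 for H3K27ac and 7 for H3K27me3, and 56 peak lists, 18 from the caller MACS2 and 38 from SEACR. The 8 benchmark libraries were 2 biological replicates each of the H3K27ac antibodies Abcam-ab177178 (1:100), Abcam-ab4729 (1:100) and Diagenode (1:50), and of the H3K27me3 antibody from CST (1:100), all with 15 PCR cycles, SDS extraction and no TSA. The other libraries were single: 6 first tests with 15 cycles and SDS extraction (both Abcam antibodies, Active Motif and CST at 1:100, and Diagenode at 1:100 and 1:50), 4 repeats of these with the histone deacetylase inhibitor trichostatin A (TSA), and 20 with 11 or 13 cycles and SDS or column extraction, all with cells of the same line and no further treatment. The lists themselves hold no read depth, and fragment numbers were not used here. They held 1876 to 34897 H3K27ac peaks by MACS2 and 3070 to 21904 by SEACR. All 7 erythroid marker genes examined, among them GATA1, TAL1 and HBG2, had a MACS2 H3K27ac peak in 6 of 6 benchmark libraries. Of the lymphoid genes given here, CD3E and PAX5 had no H3K27ac peak in the benchmark libraries, CD79A had a MACS2 peak in 1 of 6 and CD3D in 5 of 6, the latter with a SEACR peak in 2 of 6.

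The proteasome degrades ubiquitin-tagged proteins in every cell. Its core is a barrel of alpha rings, which gate the entry, around beta rings, which hold the cutting sites. It is capped by a regulatory particle of ATPases, which unfold the substrate, and non-ATPase subunits, which bind and strip ubiquitin. Interferon induces PSMB8, PSMB9 and PSMB10, which take the places of the catalytic subunits PSMB5, PSMB6 and PSMB7 in the immunoproteasome that trims peptides for antigen presentation. PSMB11 serves the thymus and PSMA8 the testis. H3K27ac marks active promoters and enhancers, and H3K27me3 marks chromatin silenced by Polycomb complexes.

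Most proteasome genes carried H3K27ac at a start in every benchmark library. By MACS2, 39 of 46 were called in 6 of 6 libraries (84.8%), against 43.8% of all protein-coding genes, and by SEACR 34 of 46 (73.9%), against 36.7%. The 34 were also called in all 12 lists of both callers, where 36.0% of all genes were. The mitochondrial ribosomal protein genes, another large housekeeping set, stood close to these shares, at 88.5% by MACS2 and 73.1% by SEACR. Since the members were chosen with these results known, the shares are descriptions without a test. In single libraries, MACS2 called 45 and 45 proteasome genes with ab177178 (55.9% and 55.6% of all genes), 39 and 44 with ab4729 (45.5% and 53.9%), and 44 and 45 with Diagenode (50.4% and 53.5%). The first ab4729 replicate was the low one, and without it the number of genes called in all remaining libraries was 44. SEACR called 44 and 43 with ab177178 (51.0% and 51.3%), 39 and 36 with ab4729 (43.8% and 40.6%), and 41 and 40 with Diagenode (43.0% and 44.6%), with the second ab4729 replicate lowest. With the MANE Select start alone (the annotation's representative transcript, a setting added after the data were seen), 39 of 46 were called in 6 of 6 by MACS2 and 33 by SEACR. The shares of all genes were 40.8% and 34.0%. In all 12 lists 33 of 46 were called, against 33.2% of all genes. PSMD9 was called in 5 of 6 by SEACR there, and in 6 of 6 at a start 5027 bp inside the gene. Proteasome genes had a median of 8.5 starts and 7210 bp of windows, against 5 and 6430 bp over all genes.

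**Figure D1:**
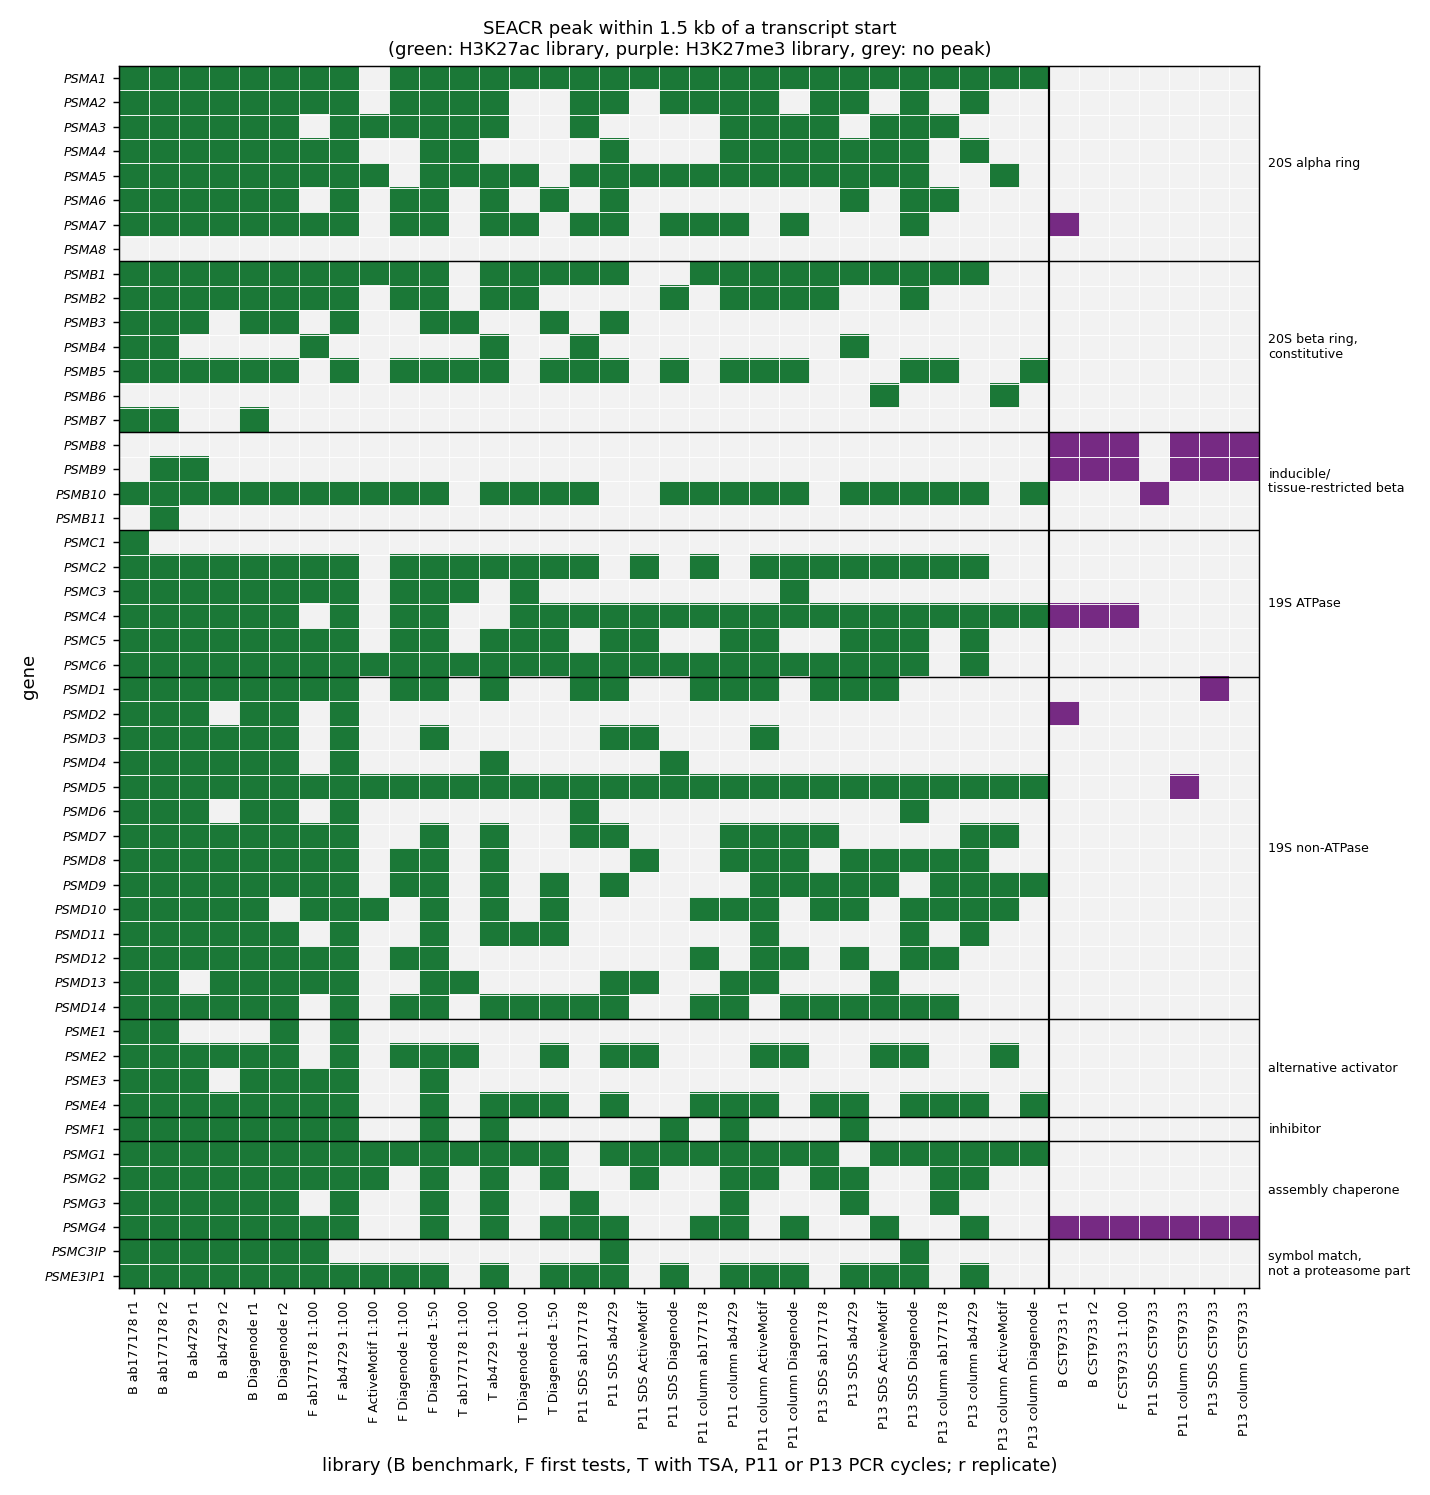
Calls of the 50 genes (rows, grouped by role) in the 38 SEACR lists (columns). Green cells are H3K27ac libraries and purple cells H3K27me3 libraries with a peak within 1.5 kb of a start. PSMA8 has no peak in any column, PSMD5 has one in all 31 H3K27ac columns, and PSMG4 has one in all 7 H3K27me3 columns.

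The calls differed by role, with few genes in each. All 4 assembly chaperones (PSMG1 to PSMG4), which build the alpha ring, were called in 6 of 6 libraries by both callers. Of the 8 alpha subunits, 7 were, and the exception was PSMA8. All 14 PSMD genes were called in 6 of 6 by MACS2 and 10 by SEACR. They are grouped here as non-ATPase subunits of the regulatory particle, though the group also holds assembly chaperones such as PSMD5. Of the 6 ATPases, 5 were called in 6 of 6 by both callers, PSMC1 being the exception. Of the 7 constitutive beta subunits, 3 were called in 6 of 6 by MACS2 and by SEACR (PSMB1, PSMB2 and PSMB5), beside the 43.8% and 36.7% of all genes. The inhibitor PSMF1 was called in 6 of 6 by both, and of the 4 alternative activators 3 by MACS2 and 2 by SEACR.

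PSMA8, the testis form of an alpha subunit, was at one end of the range with 0 of 38 libraries by SEACR and 0 of 18 MACS2 lists for either mark (start at position 23713833 on the plus strand of chromosome 18). Absence from both marks in the benchmark libraries was seen in 18.7% of all genes by MACS2 and 21.5% by SEACR. PSMB6, a catalytic beta subunit, was called in 3 of 6 benchmark libraries by MACS2 and 0 of 6 by SEACR. Its MACS2 peaks covered 10.2% and 25.4% of the 3 kb around the MANE Select start with ab177178, 0.0% in both ab4729 libraries, and 0.0% and 11.8% with Diagenode. No antibody besides ab177178 gave a peak there in both replicates. The ATPase PSMC1 was called in 5 of 6 by MACS2 and in 1 of 6 by SEACR, the first ab177178 library. PSMB4, a structural beta subunit, was called in 5 of 6 by MACS2 and 2 of 6 by SEACR. PSMB7, the trypsin-like catalytic subunit, and PSME1, a subunit of the interferon-inducible activator PA28, were each called in 5 of 6 by MACS2 and 3 of 6 by SEACR. PSMB3, a structural beta subunit, was called in 5 of 6 by both. The library without a MACS2 peak at PSMC1, PSMB3, PSMB4, PSMB7 and PSME1 was in each case the first ab4729 replicate. PSMD2, PSMD6, PSMD10, PSMD13 and PSME3 were called in 6 of 6 by MACS2 and 5 of 6 by SEACR.

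The sequence before the start of PSMB4 is shown because its H3K27ac calls differed between the callers (5 of 6 libraries by MACS2 and 2 of 6 by SEACR). It was read from the hg19 genome 5′ to 3′ on the plus strand, ends before the first annotated exon, and lies upstream of every PSMB4 transcript. Capitals mark the 69 bases under MACS2 H3K27ac peaks in every library that had a peak in the stretch (3 libraries).
PSMB4 (chr1:151371799-151372035): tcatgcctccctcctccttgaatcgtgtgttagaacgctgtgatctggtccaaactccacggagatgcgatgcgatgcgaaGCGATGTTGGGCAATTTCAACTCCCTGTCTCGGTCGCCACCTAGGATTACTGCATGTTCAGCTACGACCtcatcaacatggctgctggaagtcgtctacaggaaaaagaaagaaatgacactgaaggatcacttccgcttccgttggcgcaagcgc

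Across all 31 H3K27ac libraries, the proteasome genes were called in a median of 18 SEACR lists, against a median of 3 over all protein-coding genes. PSMD5, an assembly chaperone of the regulatory particle that is grouped here with its non-ATPase subunits, was called in 31 of 31, the alpha subunit PSMA1 in 30, the chaperone PSMG1 in 29, the ATPase PSMC6 in 28 and the ATPase PSMC4 in 27. At least 20 of 31 lists held a peak for 18 of the 46 genes (39.1%), against 17.9% of all genes. The mitochondrial ribosomal protein genes stood at 42.3%, so this breadth was not particular to the proteasome genes. Fewer than 10 lists held one for 11 of the 46, against 12467 of all 20162 genes. PSMA8 stood at 0, PSMC1 at 1, PSMB6 at 2 and PSMB7 at 3. In each of the 31 lists the share of proteasome genes called was above that of all genes, by 4.8 to 46.1 percentage points. By MACS2 this held in 14 of 15 lists. The exception was the ab177178 library with TSA, the list with the fewest peaks, which called 2 of 46 (4.35%) beside 4.51% of all genes. For H3K27me3 the order was reversed in all 10 lists: 1 to 5 proteasome genes were called, beside 18.0% to 32.3% of all genes.

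**Figure D2:**
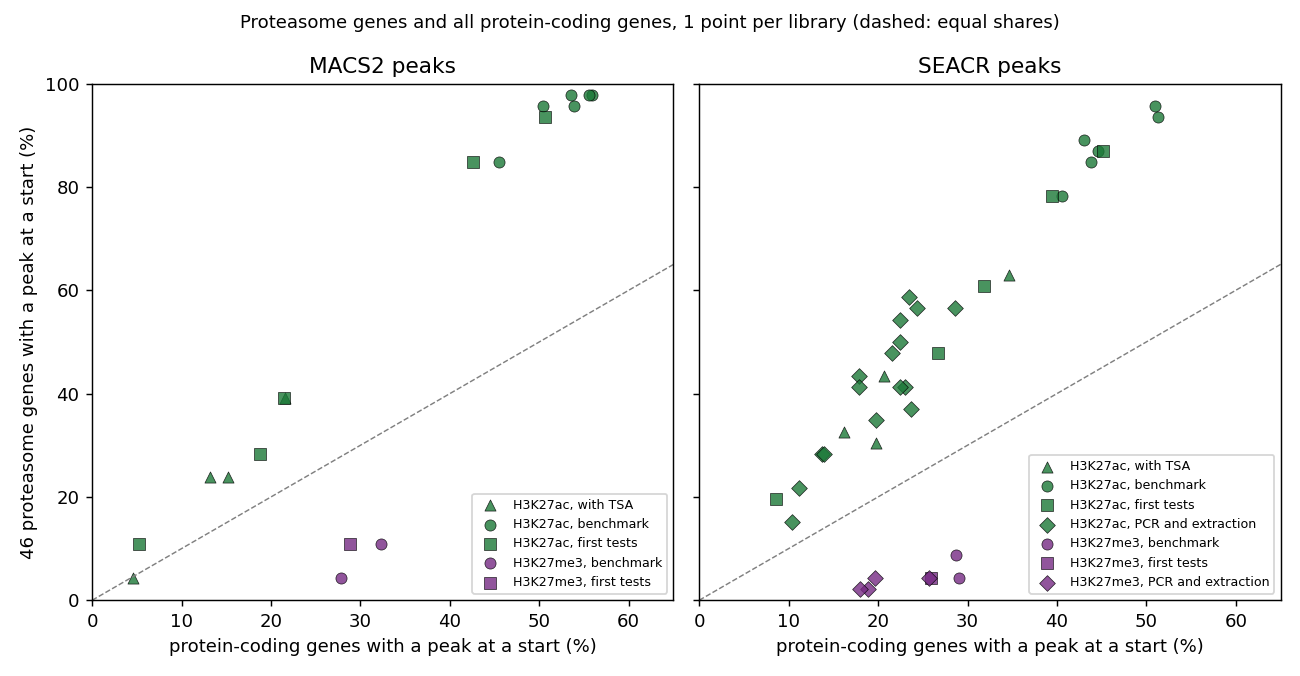
Share of all protein-coding genes (x axis, percent) and of the 46 proteasome genes (y axis, percent) with a peak within 1.5 kb of a start, 1 point per library, MACS2 left and SEACR right. Green H3K27ac points lie above the dashed line of equal shares except 1 TSA library in the MACS2 panel (4.35% against 4.51%), and purple H3K27me3 points lie below it.

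The H3K27ac peaks at proteasome starts ranked higher among the peaks of their own list by MACS2 than those of other genes, and less clearly so by SEACR. Each gene was given the percentile of its strongest peak within the list, by −log10 q for MACS2 and by total signal for SEACR, as a median over the benchmark libraries. The median of these percentiles was 85.5 over 45 proteasome genes with a MACS2 peak, 73.2 over all genes with one and 79.2 over mitochondrial ribosomal genes. By SEACR it was 64.2 over 44 genes, against 56.4 and 53.5. Within libraries, the SEACR median of the proteasome genes was below that of all genes in the first ab4729 library (61.8 against 63.1) and the first Diagenode library (60.3 against 60.4). PSMD5 ranked highest by both callers, with MACS2 percentiles of 99.6 and 99.3 (ab177178), 97.9 and 99.4 (ab4729) and 98.7 and 99.0 (Diagenode). PSMG1 (98.7) and PSMG2 (97.8), which form a chaperone dimer, followed by MACS2, and PSMG1 (88.8) and PSME4 (87.0), the nuclear activator PA200, by SEACR. The lowest medians were those of PSMB6 (34.1), PSMB3 (34.5) and PSMB4 (38) by MACS2, and of PSME1 (12), PSMC1 (13.1) and PSMB7 (17.3) by SEACR, each among the libraries that had a peak. PSMB11 (1.63) and PSMB9 (9.13), set apart, were lower still by SEACR.

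Around the MANE Select start, peak cover of the proteasome genes reached further into the gene than upstream. By MACS2, 90.9% of the 46 genes were under an H3K27ac peak at the start itself (mean of 6 libraries), 23.6% at 1000 bp upstream and 45.7% at 1000 bp downstream. Over all 18922 genes with such a start these were 43.6%, 14.8% and 21.8%, and over the mitochondrial ribosomal genes 94.9%, 28.2% and 32.7%. By SEACR, whose peaks are wider (median 3750 bp at proteasome genes, against 1620 bp by MACS2), the proteasome genes stood at 87.7%, 55.4% and 81.9%, all genes at 42.0%, 31.4% and 38.5%, and the mitochondrial ribosomal genes at 88.5%, 63.7% and 77.8%. Peak widths were near those of all genes with a peak, which were 3770 bp by SEACR and 1460 bp by MACS2. H3K27me3 covered 4.35% of the proteasome starts by either caller, beside 20.4% (MACS2) and 20.5% (SEACR) of all starts.

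**Figure D3:**
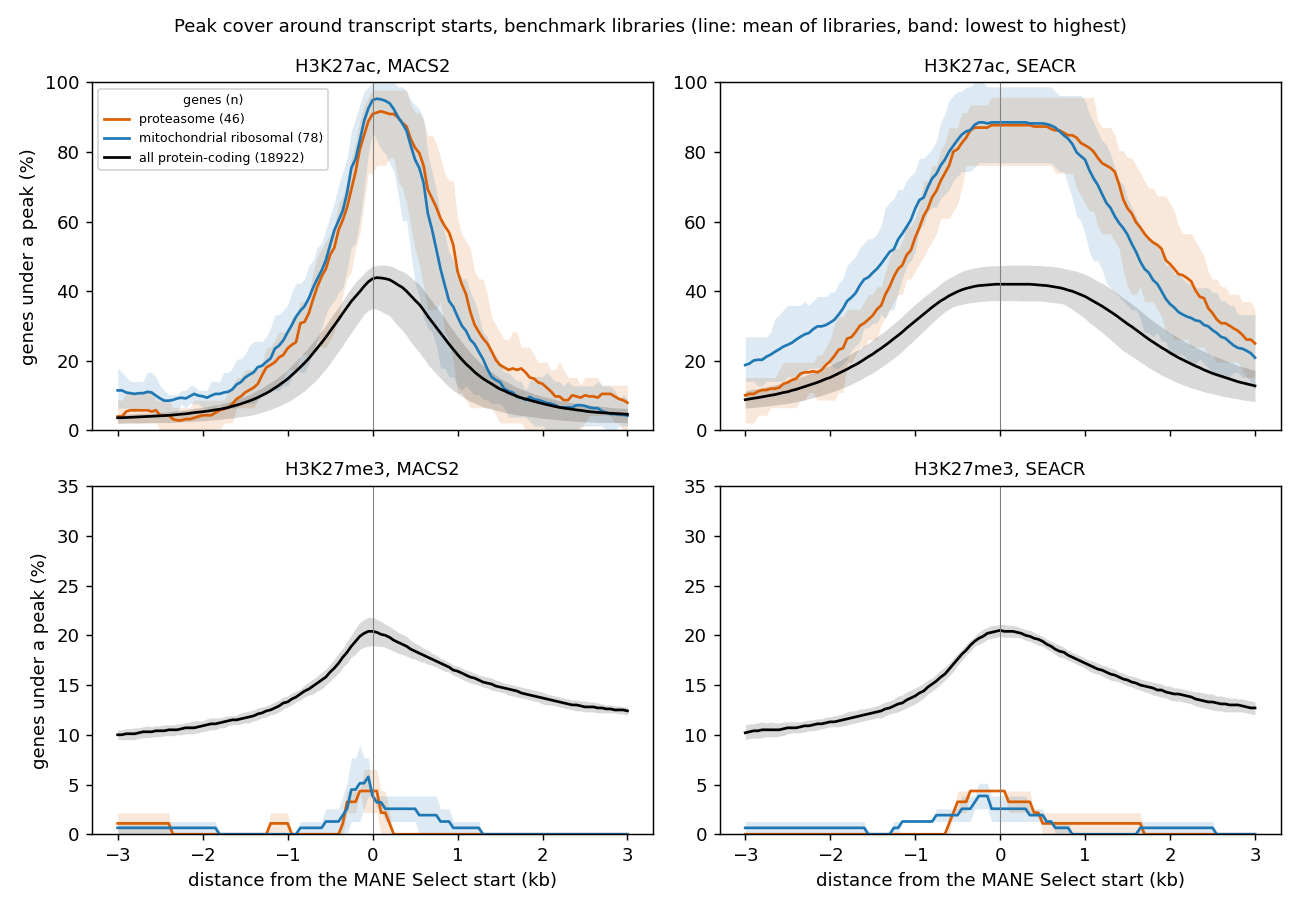
Share of genes under a benchmark peak (y axis, percent) by distance from the MANE Select start (x axis, kb, transcription to the right), for H3K27ac above and H3K27me3 below. Lines are means over libraries and bands run from the lowest to the highest library. The proteasome line (orange) stands at 90.9% at the start for MACS2 H3K27ac beside 43.6% for all genes (black), and at 4.35% beside 20.4% for MACS2 H3K27me3.

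Some proteasome genes share their promoter region with a divergent neighbour. Of the 46 genes, 9 (19.6%) had the MANE Select start of a protein-coding gene of the opposite strand within 1500 bp upstream, against 9.9% of all genes. The closest pairs were PSME4 with ACYP2 (120 bp), PSMA2 with MRPL32 (202 bp), PSMD10 with ATG4A (236 bp), PSME3IP1 with RSPRY1 (290 bp) and PSMG2 with CEP76 (319 bp). A peak at such a start is counted for both genes of the pair and cannot be told apart between them.

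The 4 genes set apart differed among themselves. PSMB10 (chromosome 16, minus strand, start at 67970753) was called in 6 of 6 benchmark H3K27ac libraries by both callers and in 26 of 31 SEACR lists. Its MACS2 peaks covered 90.2% and 70.7% (ab177178), 68.7% and 64.5% (ab4729) and 63.9% and 77.9% (Diagenode) of the 3 kb around its start. It had no benchmark H3K27me3 peak. PSMB11, a gene with a single annotated start, had 1 H3K27ac peak in all lists, from the second ab177178 library by SEACR, which began 901 bp downstream of the start. It had no H3K27me3 peak either.

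PSMB8 and PSMB9 lie near each other on chromosome 6, with TAP1 between their MANE Select starts. PSMB8, PSMB9 and PSMC4 were the 3 genes of the 50 with H3K27me3 within 1.5 kb of the MANE Select start in both benchmark libraries by both callers. Among all genes, 26.3% were called for H3K27me3 in 2 of 2 libraries by MACS2 and 25.9% by SEACR (22.2% and 21.8% at the MANE Select start alone). PSMB8 (minus strand, start at 32811824) had no H3K27ac peak in any list. H3K27me3 peaks covered 33.8% and 28.8% of its window in the 2 MACS2 lists, and 41.7% and 66.9% in the 2 SEACR lists. It was called in 6 of 7 H3K27me3 libraries by SEACR, and the exception was the library with 11 cycles and SDS extraction. PSMB9 (plus strand, start at 32821969) was called for H3K27me3 in the same 6 libraries, with 100.0% and 77.6% of the window covered by MACS2. It was also called for H3K27ac in 5 of 6 benchmark libraries by MACS2 and 2 of 6 by SEACR. Its H3K27ac cover by MACS2 was 22.6% and 27.3% (ab177178), 21.0% and 27.8% (ab4729), and 0.0% and 20.2% (Diagenode). The 5 peaks lay between 833 bp upstream and 38 bp downstream of the PSMB9 start. They also took in the start of TAP1, a peptide transporter gene that runs the opposite way from 488 bp upstream. TAP1 was therefore called in the same numbers of libraries, 5 by MACS2 and 2 by SEACR for H3K27ac and 2 of 2 by both for H3K27me3. Another start of PSMB9, 10056 bp upstream, falls within the PSMB8 window, so the H3K27me3 peaks there count for both genes. Peaks of 2 marks from separate libraries do not show that both sit on the same chromosome copies.

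The stretch before the PSMB9 start is shown because it lay under peaks of both marks (hg19, plus strand, between the TAP1 and PSMB9 starts, in an intron of a longer PSMB9 transcript). Capitals mark the 129 bases under the MACS2 H3K27ac peaks of all 5 libraries.
PSMB9 (chr6:32821719-32821924): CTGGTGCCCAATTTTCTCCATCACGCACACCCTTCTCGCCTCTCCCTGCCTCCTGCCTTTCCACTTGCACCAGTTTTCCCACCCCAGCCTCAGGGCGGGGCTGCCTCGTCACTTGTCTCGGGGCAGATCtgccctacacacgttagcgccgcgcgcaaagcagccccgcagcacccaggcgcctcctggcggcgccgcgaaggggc

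**Figure D4:**
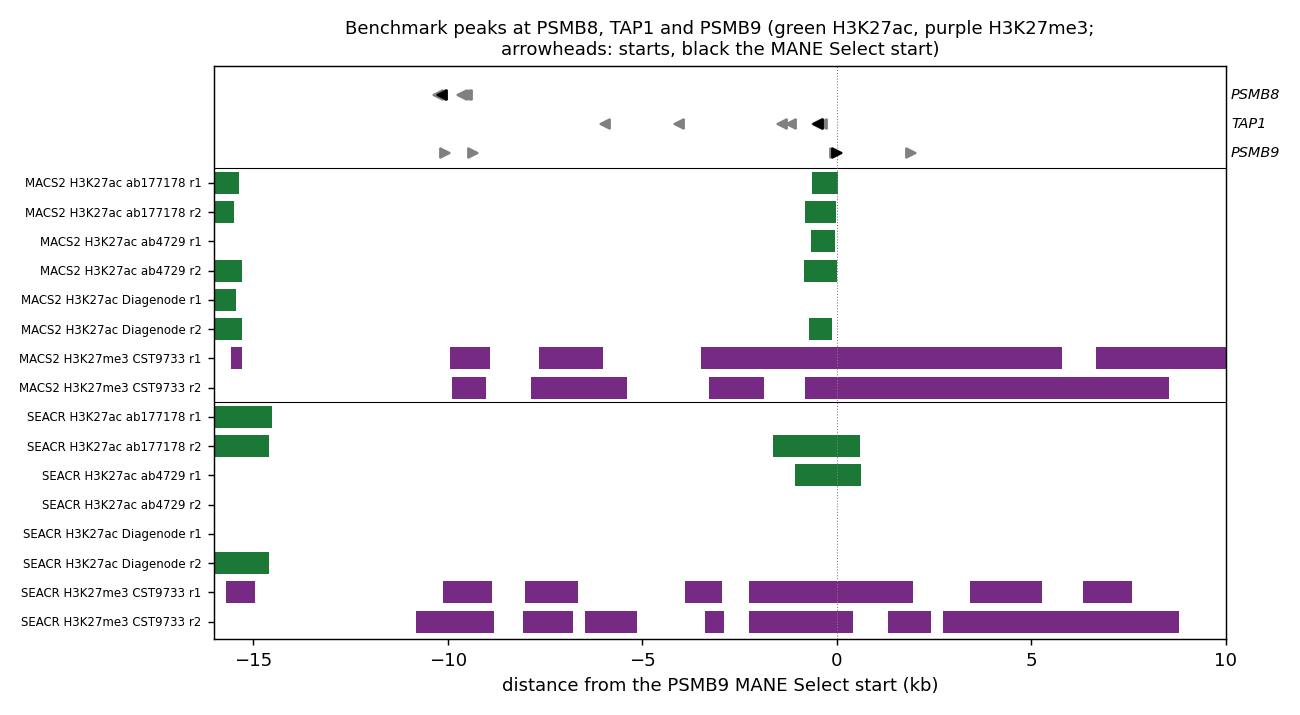
Peaks of the 8 benchmark libraries (1 line per library and caller) by distance from the PSMB9 MANE Select start (x axis, kb), green for H3K27ac and purple for H3K27me3. Arrowheads show transcript starts and their direction. The H3K27ac peaks beside the TAP1 and PSMB9 starts are in 5 MACS2 lines and 2 SEACR lines and overlap the H3K27me3 peaks, and no H3K27ac peak reaches the PSMB8 starts.

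Among the 46 proteasome genes, H3K27me3 was called in 2 of 2 benchmark libraries for PSMC4 and PSMG4 by both callers (4.35%). Both were also called for H3K27ac in 6 of 6, a combination found in 3.1% of all genes by MACS2 and 2.01% by SEACR. The layout of the marks differed between the genes. PSMG4, an assembly chaperone on chromosome 6, has starts up to 27544 bp upstream of its MANE Select start at 3259181. The H3K27me3 peaks covered the upstream starts, with MACS2 widths of 11823 and 10510 bp. The H3K27ac peaks of all 6 libraries covered the MANE Select start and did not reach the upstream ones. At the MANE Select start H3K27me3 was called in 1 of 2 libraries, the second, by a MACS2 peak of 237 bp. PSMG4 was called for H3K27me3 in 7 of 7 SEACR libraries, as were 12.2% of all genes. The benchmark H3K27me3 peaks at the upstream starts also covered starts of TUBB2B, a gene of the opposite strand. These lie at −31294 bp (MANE Select) and −27217 bp from the PSMG4 MANE Select start. H3K27me3 calls at the upstream starts therefore cannot be told apart between PSMG4 and TUBB2B.

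At PSMC4, an ATPase gene on chromosome 19 (plus strand, start at 40477072), short H3K27me3 peaks lay within the H3K27ac peaks. By MACS2 they were 405 and 233 bp wide and by SEACR 952 and 493 bp, while the strongest H3K27ac peak had a median width of 2679 bp by MACS2. H3K27ac covered 89.4% and 88.3% (ab177178), 54.7% and 71.1% (ab4729) and 85.7% and 88.0% (Diagenode) of the PSMC4 window by MACS2, and H3K27me3 covered 13.5% and 7.8%. In the first CST library PSMC4 was called again by both callers, and in the 4 libraries with 11 or 13 cycles it was not, so the total was 3 of 7 by SEACR. The stretch before the PSMC4 start holds no annotated transcript, and capitals mark the 157 bases under the MACS2 H3K27me3 peaks of both benchmark libraries.
PSMC4 (chr19:40476822-40477071): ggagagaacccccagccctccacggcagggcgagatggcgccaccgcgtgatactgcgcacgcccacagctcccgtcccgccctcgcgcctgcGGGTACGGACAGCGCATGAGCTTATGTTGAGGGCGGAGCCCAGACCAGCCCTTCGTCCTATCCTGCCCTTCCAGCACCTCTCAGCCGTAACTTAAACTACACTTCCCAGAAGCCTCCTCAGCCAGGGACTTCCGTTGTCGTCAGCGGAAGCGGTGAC

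**Figure D5:**
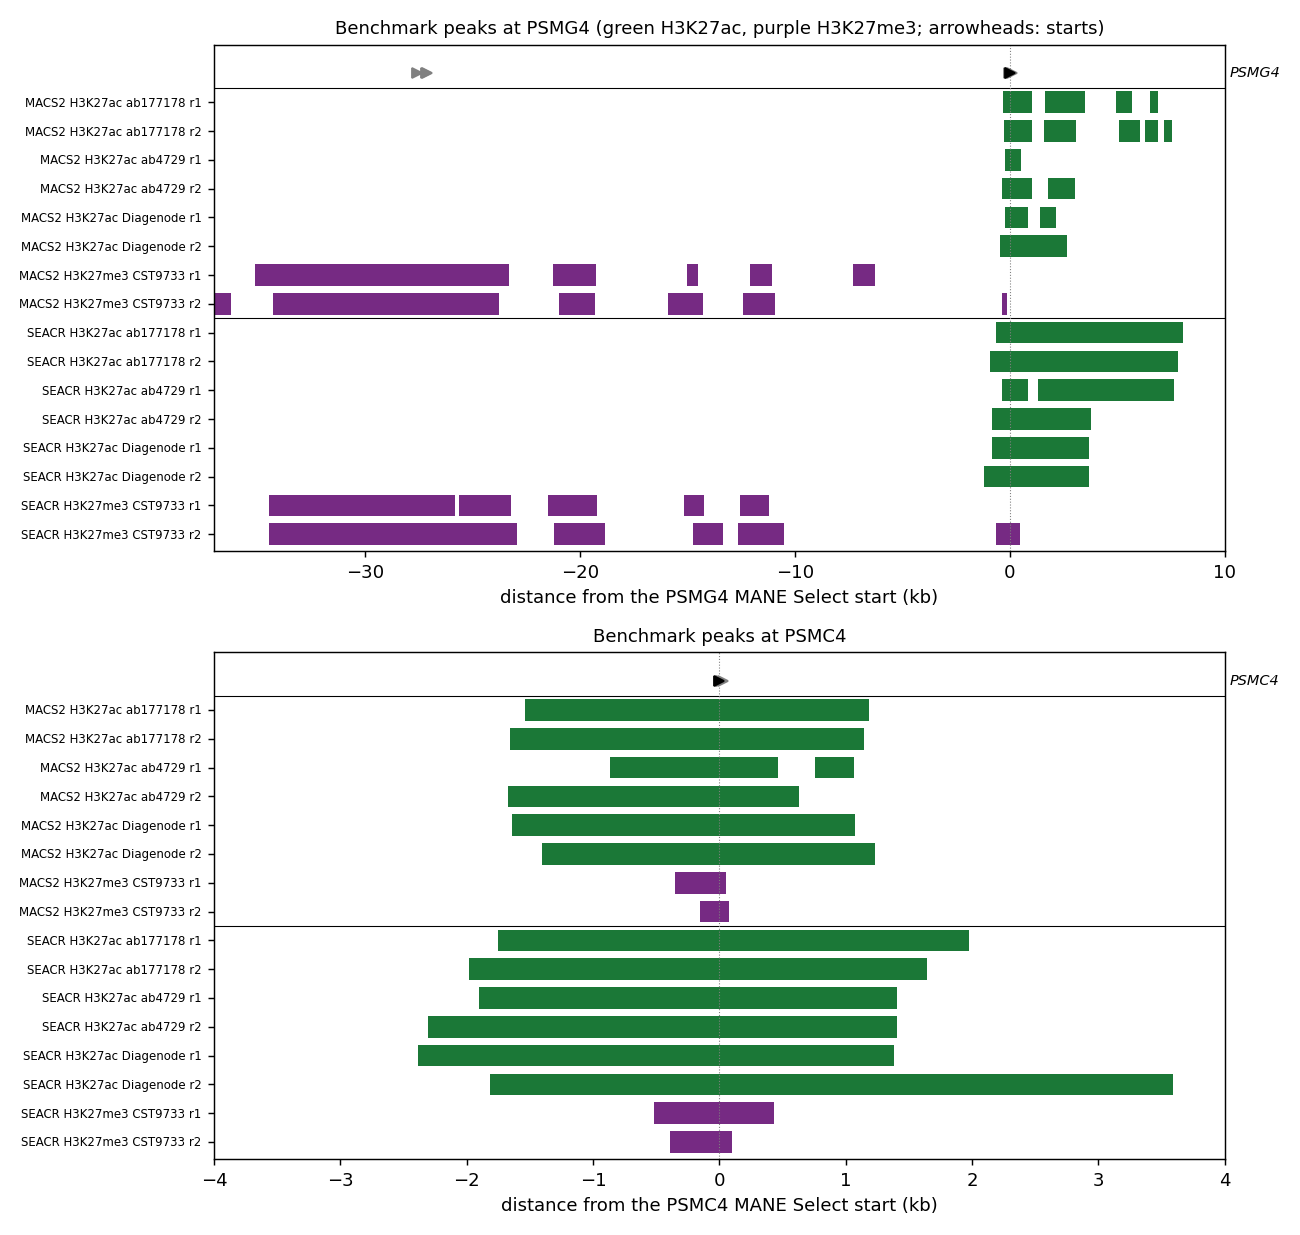
Benchmark peaks at PSMG4 (top) and PSMC4 (bottom) by distance from the MANE Select start (x axis, kb), 1 line per library and caller, green for H3K27ac and purple for H3K27me3, arrowheads for starts. At PSMG4 the wide H3K27me3 peaks lie over the starts 27544 to 27118 bp upstream, and at PSMC4 the H3K27me3 peaks of 233 to 952 bp lie inside the H3K27ac peaks. The wide peaks at PSMG4 also lie over starts of TUBB2B, which are not drawn.

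At 4 other proteasome genes H3K27me3 was called in 1 of 2 benchmark libraries, always the first. PSMD2, a scaffold subunit of the regulatory particle, had a MACS2 peak of 459 bp and a SEACR peak of 939 bp over the start. PSMD12 had a MACS2 peak of 349 bp over the start and PSMB1 one of 222 bp that ended 991 bp upstream. The PSMB1 peak lay over the MANE Select start of the divergent gene TBP, 1062 bp upstream of that of PSMB1. PSMA7 had a SEACR peak of 1218 bp inside the gene. In all, 5 of 46 genes had H3K27me3 in at least 1 benchmark library by MACS2 (10.9%, against 33.8% of all genes) and 4 by SEACR (8.7%, against 31.8%).

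Whether the cover of a gene's start windows differed among the 3 H3K27ac antibodies was tested over all genes with a limma F test on the percent of windows covered, with Benjamini-Hochberg adjustment. By SEACR, 4 of 47 genes tested (the proteasome genes and those set apart with a peak) passed at an adjusted p of 0.05, where 9.59% of 10907 genes did, so their share was near the background. All 4 had more cover with ab177178. The study's own tables give both ab177178 libraries more unique fragments than any other benchmark H3K27ac library, so antibody and depth cannot be told apart here. PSMB4 had 90.53% and 81.44% with ab177178 and 0.00% in the other 4 libraries. It entered the test only through the ab177178 libraries and so had to differ, and its values are a description without a p. With a peak required in at least 3 libraries, which leaves PSMB4 out, 2 of 43 members tested passed (limma), where 4.95% of 9498 genes did. The adjusted p values that follow are those of the test without this requirement, and not all of the genes they belong to passed with it. PSMD8, a non-ATPase subunit, had 88.92% and 87.64% with ab177178, 36.44% and 44.87% with ab4729, and 43.87% and 47.69% with Diagenode (limma adjusted p = 0.0104). PSMB1 had 89.81% and 97.10%, 47.74% and 53.21%, and 52.00% and 57.59% in the same order (limma adjusted p = 0.0181). PSMA7 was the fourth (limma adjusted p = 0.0384). In each of the 4 genes the ab177178 libraries did not overlap with the others, which adds no support, since the genes were picked by this same difference. How many of all genes do so was not counted.

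For 3 of these 4 genes the call did not hold at the main start. Within 1.5 kb of the MANE Select start, a setting added after the data were seen, PSMD8, PSMB1 and PSMA7 had limma adjusted p values of 0.76, 0.758 and 0.758, while PSMB4 had cover with ab177178 alone there too (100.0% and 86.5%). PSMB1 has a second annotated start 2866 bp inside the gene, and PSMA7 has starts 3489 and 3998 bp inside it. By MACS2, 0 of 47 genes passed (limma), where 2 of 11809 genes did (0.0169%), and 8 of the 47 had an unadjusted p under 0.05. Without the second ab4729 library, 4 of the 47 and 860 genes in all passed by MACS2. Without the first, 2 of the 47 passed by SEACR.

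The number of PCR cycles and the DNA extraction were compared in 16 H3K27ac libraries, with SEACR lists that were downsampled to a shared depth. With 13 against 11 cycles, the number of proteasome genes called was 19 against 19 (ab177178), 23 against 25 (ab4729), 20 against 13 (Active Motif) and 26 against 13 (Diagenode) after SDS extraction. After column extraction it was 17 against 16, 19 against 26, 10 against 27 and 7 against 22. The direction thus turned between the extractions for Active Motif and Diagenode. The share of all genes called moved the same way for these antibodies (10.4% to 28.6% over the 16), from 14.0% to 24.4% for Diagenode after SDS extraction and from 21.5% to 10.4% after column extraction. Active Motif in the first test, with 15 cycles, gave 9 of 46 by SEACR (8.63% of all genes) and 5 by MACS2 (5.19%). In an exact two-sided sign test of single genes over the 8 pairs, where 41 of the 50 genes were tested, 0 of 9662 genes passed after adjustment (0.0%), and 24 genes had an unadjusted p under 0.05, none of them a member. The smallest p the 8 pairs allow is 0.00781, which adjustment over this many genes leaves above 0.05 unless a large share of them reach it, so the 0 calls say little. The pairs also pool the extractions between which the direction turned. PSMA7 had the lowest p of the members: it was lost at 13 cycles in 5 pairs and gained in 0 (exact sign test p = 0.0625, adjusted 1.0).

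Column against SDS extraction gave 16 against 19 (ab177178), 26 against 25 (ab4729), 27 against 13 (Active Motif) and 22 against 13 (Diagenode) proteasome genes at 11 cycles. The shares of all genes were 19.8% against 23%, 28.6% against 22.5%, 23.5% against 13.7% and 21.5% against 14.0%. At 13 cycles it gave 17 against 19, 19 against 23, 10 against 20 and 7 against 26 proteasome genes. Over all genes these libraries stood at 23.7% against 22.5%, 17.9% against 22.4%, 11.1% against 17.9% and 10.4% against 24.4%, so the proteasome genes and all genes went opposite ways for ab177178 at 13 cycles. In the same exact sign test, with the same limit, 0 of 9662 genes passed (0.0%), and 5 had an unadjusted p under 0.05, none of them a member.

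With TSA, fewer proteasome genes had an H3K27ac peak in 7 of 8 comparisons of lists, and equally many in the other. With ab177178, SEACR called 14 genes with TSA and 28 without (19.8% and 31.8% of all genes), and with ab4729 29 and 40 (34.6% and 45.2%). With Diagenode it called 15 and 22 at the 1:100 dilution (16.2% and 26.7%) and 20 and 36 at 1:50 (20.7% and 39.5%). MACS2 called 2 and 13 with ab177178 (4.51% and 18.8%), 11 and 43 with ab4729 (15.2% and 50.6%), and with Diagenode 18 and 18 at 1:100 (21.6% and 21.4%) and 11 and 39 at 1:50 (13.2% and 42.6%). The share of all genes called was thus lower with TSA wherever the number of proteasome genes was. The ab4729 SEACR list with TSA held more peaks than the one without (21904 against 13427), and the other 3 SEACR lists held fewer. The TSA lists were downsampled and those without TSA were not, so treatment and depth cannot be told apart here. With 4 pairs an exact sign test cannot reach 0.05, and no test was run.

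The other genes of the pathway were taken from 2 lists. Of 26 partners of the proteasome (ubiquitin receptors and genes, deubiquitinases, assembly factors and the transcription factors NFE2L1 and NFE2L2), 25 were called for H3K27ac in 6 of 6 libraries by MACS2 and 23 by SEACR. The shares of all genes were 43.8% and 36.7%. The exceptions were UBA1, the ubiquitin-activating enzyme (5 and 2 of 6), SEM1, a small subunit of the regulatory particle (6 and 4), and the ubiquitin shuttle UBQLN2 (6 and 4). None of the partners was called for H3K27me3 in 2 of 2 libraries, against 26.3% of all genes by MACS2 and 25.9% by SEACR. Of the companions of the immunoproteasome in antigen presentation given here, TAPBP, IRF1, ERAP1 and ERAP2 were called for H3K27ac in 6 of 6 by both callers, as were 36.0% of all genes. TAP1 and TAP2 were called in 5 of 6 by MACS2 and in 2 and 3 by SEACR. NLRC5, an activator of antigen presentation genes, was called in 0 of 6 for H3K27ac and in 7 of 7 SEACR lists for H3K27me3, the latter as were 12.2% of all genes.

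The promoters themselves, taken as 250 bp before to 50 bp after the MANE Select start, held the core of the antioxidant response element TGACNNNGC on either strand in 13 of 46 proteasome genes (28.3%), against 14.1% of all 18922 promoters and 12.8% of the mitochondrial ribosomal ones. This element is bound by NFE2L1, which drives proteasome genes when the particle is inhibited, and by NFE2L2, which acts under oxidative stress. The motif was in 9 of 33 proteasome promoters with a SEACR H3K27ac peak in 6 of 6 libraries at that start (27.3%) and in 4 of 13 without (30.8%). Among all genes with such a peak it was in 15.3%. PSMA7 held 3 matches and PSMB9 held 1, on the minus strand, beginning 148 bp upstream, within the capitals of the sequence above. GC content was 62.0% in the median proteasome promoter and 64.0% over all, with observed-to-expected CpG ratios of 0.857 and 0.782. The 4 genes set apart had a median ratio of 0.466, from 0.169 for PSMB11 and 0.329 for PSMB10 to 0.603 for PSMB8 and 0.75 for PSMB9. A match of letters is no evidence of binding.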

How the data were processed

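CUT&Tag reads of K562 cells were trimmed with Trim Galore 0.6.6, aligned to hg19 with Bowtie2 2.2.9 and freed of duplicates with Picard 2.6.0, per the labels. The authors called peaks in each library with MACS2, which gave a fold ratio, a −log10 p, a −log10 q and a score per peak, and with SEACR, which gave total and maximum signal. H3K27ac lists used a stricter SEACR threshold than H3K27me3 lists, and MACS2 was run in narrow mode for H3K27ac and broad mode for H3K27me3, so calls of the 2 marks are not on one scale. Whether SEACR ran in its stringent mode is described in different ways in the sources. Peaks in blacklisted regions were kept here.

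Windows of 1500 bp either side of every transcript start (GENCODE v44 lifted to hg19) were intersected with the peaks of each of the 56 lists (Python 3.11.15, pandas 2.3.3). Benchmark lists of the same caller shared at most 0.188% of identical peaks. Covered shares were compared with limma 3.58.1 (R 4.3.3) over all genes with a peak in at least 1 of 6 libraries, and calls of paired libraries with exact sign tests, both with Benjamini-Hochberg adjustment at 0.05. The limma and sign tests were tested on simulated data. The lists hold no read counts, so no counting interval is given, and p-values measure the spread between these libraries of 1 cell line.

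Members and gene lists were chosen with earlier results of these data known. Genes named were the 4 set apart, members not called in all 6 benchmark H3K27ac libraries, those with a benchmark H3K27me3 peak, those at the ends of the ranks by peak strength and number of libraries, those past a test, the 5 closest divergent pairs and up to 4 exceptions per gene list, and a few were added as examples of their role. Alternatives were other start sets, a 500 bp window, a 150 bp overlap, stricter peak thresholds, other scalings and leaving out each replicate. Promoter sequence came from the GRCh37 genome. A few genes of the lists and 1 sequence are not reported here.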

Additional observations from a re-analysis of the deposited data

How the results depend on the processing

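Of 84 alternative values of the main results, 56 kept their side of the threshold or stayed within 1.5 times or 1 SD of the value reported. Both numbers include the sign tests by PCR cycles and extraction, whose outcome could hardly change, so the tally overstates stability. The number of proteasome genes with H3K27ac in every benchmark library fell from 34 to 21 by SEACR with the 50% of peaks of highest signal. When single libraries were left out it was 39 to 44 (MACS2) and 34 to 38 (SEACR). Leaving out a library can only keep or raise such a number, so these ranges do not show stability. The number with H3K27me3 in both libraries was 1 with a −log10 q of at least 10, with the stronger 50% of SEACR peaks and at the MANE Select start alone (added after seeing the data, both callers), in place of 2. Without a replicate, where it could likewise not fall, it ranged from 2 to 5 (MACS2) and from 2 to 4 (SEACR), the higher numbers without the second CST library.

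Genes whose cover differed among antibodies depended most on the processing. By MACS2 the number was 2, and it became 269 with libraries centred on their medians, 0 with a peak required in 3 libraries, 0 at the outermost start, 0 at the MANE Select start and 0 to 860 without single libraries. By SEACR it was 1046, and became 465, 470, 814 and 848 under the first 4 settings and 950 to 1408 without single libraries, with 1 to 5 of them members. The main test used no replicate pairing. Correlations of deviations between libraries of the same replicate number ran from −0.00184 to 0.294, the highest between ab4729 and Diagenode by MACS2. With the replicate number as a block the calls were 0 by MACS2 and 553 by SEACR, 3 of them members. With a library left out, its lone partner was assumed to vary like the other groups.

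The median percentile of proteasome peaks by SEACR, 66.3 as the mean of the libraries' medians, was 73.9 when ranked by maximum signal. The median covered share of their windows was 20.5% by MACS2 and 32.3% by SEACR, and rose to 32.9% and 39.9% within 500 bp, 48.6% and 77.1% at the outermost start and 52.2% and 82.8% at the MANE Select start (the cause was not tested). The difference with TSA for Diagenode at 1:100 by MACS2, 0 genes, was 1 within 500 bp and 3 at the outermost start. The sign tests by PCR cycles and extraction had 6 or 8 pairs, too few to pass the adjustment in practice, and say nothing of stability. A gene without a peak was not shown to lack the mark, since the lists hold no counts from which a limit could be set.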
